A study of Mus musculus with 7 samples.

Results

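AC099934.1, AC157822.1 and AC156953.1 are 3 of the 226 genes that GENCODE vM1 classes as misc_RNA, among 13218 genes with counts in all. They were selected on the measured counts, as the misc_RNA genes with the most reverse transcription (RT) stops, so their high counts are a description and not a finding. CIRS-seq reads RNA structure from the positions at which RT stops just before a chemically modified base. DMS modifies unpaired A and C, and CMCT modifies unpaired U and G. Deproteinized lysate of E14 mouse embryonic stem cells, a line of the 129/Ola strain, was treated with DMS (reactions at 50 to 200 mM for 2 min, pooled), with CMCT (reactions at 10 to 50 mM for 20 min, pooled) or with neither (NT, a pool of the 0 mM reactions). Ribosomal RNA was depleted in all groups, each group had 2 replicates, and RNA-seq of the same line had 1 library. In the RNA-seq library the 9 markers of embryonic stem cells lay between 7.65 and 216 RPKM (alignments per kb of exon, scaled to the library total), with a median of 57.1. For 10 markers of endoderm, mesoderm, neural cells and fibroblasts the range was 0 to 3.18, and Afp, made by endoderm, was the gene listed at 0.

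The 3 genes are described here as copies of 7SL RNA, the RNA of the signal recognition particle. For AC099934.1 this rests on RefSeq placing a 7SL gene between the same neighbours, for AC157822.1 on its identity with AC099934.1 and on 1 neighbour shared with another RefSeq 7SL gene, and for AC156953.1 on its match to AC099934.1 over part of its length, since no reference sequence of 7SL was compared here. This particle binds the signal peptide of a protein that is being made and brings the ribosome to the endoplasmic reticulum, where its receptor takes it over. 7SL folds into an Alu domain, built by both ends of the RNA and bound by Srp9 and Srp14, and an S domain, built by its middle and bound by Srp19, Srp54, Srp68 and Srp72. RNA polymerase III transcribes it, and many truncated copies of it are spread over mammalian genomes.

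AC099934.1 (ENSMUSG00000092665) has a single exon of 297 bases at chr12:70260282-70260578 on the plus strand of mm9. AC157822.1 (ENSMUSG00000092773) has a single exon of 297 bases at chr12:70462172-70462468 on the minus strand, and its sequence is identical to that of AC099934.1 in all 297 bases. AC156953.1 (ENSMUSG00000092746) has a single exon of 282 bases at chr6:69466333-69466614 on the plus strand. No coding gene spans any of these places. The first gene lies 109 bases from Rps29 and 9223 bases from Lrr1, and RefSeq (GRCm38.p6) places Rn7s1, one of its 7SL genes, between the same neighbours. The second lies 4019 bases from Nemf, and RefSeq places Rn7s2, its other 7SL gene with this kind of name, next to Nemf. The neighbours on the other side differ, Gm9887 for AC157822.1 and Arf6 for Rn7s2. RefSeq gives both of these genes 299 bases. AC156953.1 matched neither.

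AC156953.1 matches AC099934.1 up to base 214 and holds another sequence after it. Over the 214 bases counted from the 5′ end, 211 were the same and 3 differed. The last 68 bases, from position 215 on, matched AC099934.1 at 23.5% of positions without gaps. It thus lacks the 3′ end of the full-length copies. The 25 bases that follow a position of AC099934.1 occurred at 2 to 10 places in mm9, with a median of 3, and at no position at a single place. In AC156953.1 these words occurred at a single place at 99 positions, which held 5.37% of its RT stops.

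The 3 genes listed largely the same reads. AC099934.1 held 5731344 RT stops over the 6 libraries, and AC157822.1 held the same number. Position by position, the 2 full-length copies differed by at most 1 RT stop in any library. Such a difference of 1 stood at 131 positions in each NT library, at 134 in each DMS library and at 0 in the CMCT libraries. At each of these 131 and 134 positions the copy that was higher by 1 in replicate 1 was lower by 1 in replicate 2, so the sum of the replicates differed at 0 positions. AC156953.1 listed the counts of AC099934.1 within 1 RT stop in all 6 libraries from position 39 to position 157. These 119 positions held 91.3% of the RT stops of AC156953.1 and 64.7% of those of AC099934.1. The equal counts included positions 39 and 40, although the 25 bases that follow them there contain 1 of the 3 differences and occur at a single place.

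The reads of the RNA-seq library carry names, so the sharing could be counted directly. Of 593633 read names with an alignment that starts in AC156953.1, 593610 (99.996%) also had an alignment starting in AC099934.1. Of 1115516 read names at AC099934.1, 1115246 (99.98%) were also listed at AC157822.1 and 593610 (53.2%) at AC156953.1. The alignments at AC099934.1 made up 3.52% of the 31857551 alignments of the library, each 50 bases long. Every count below therefore describes 7SL sequence as a family, and the 3 genes are not 3 independent measurements of it.

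**Figure D1:**
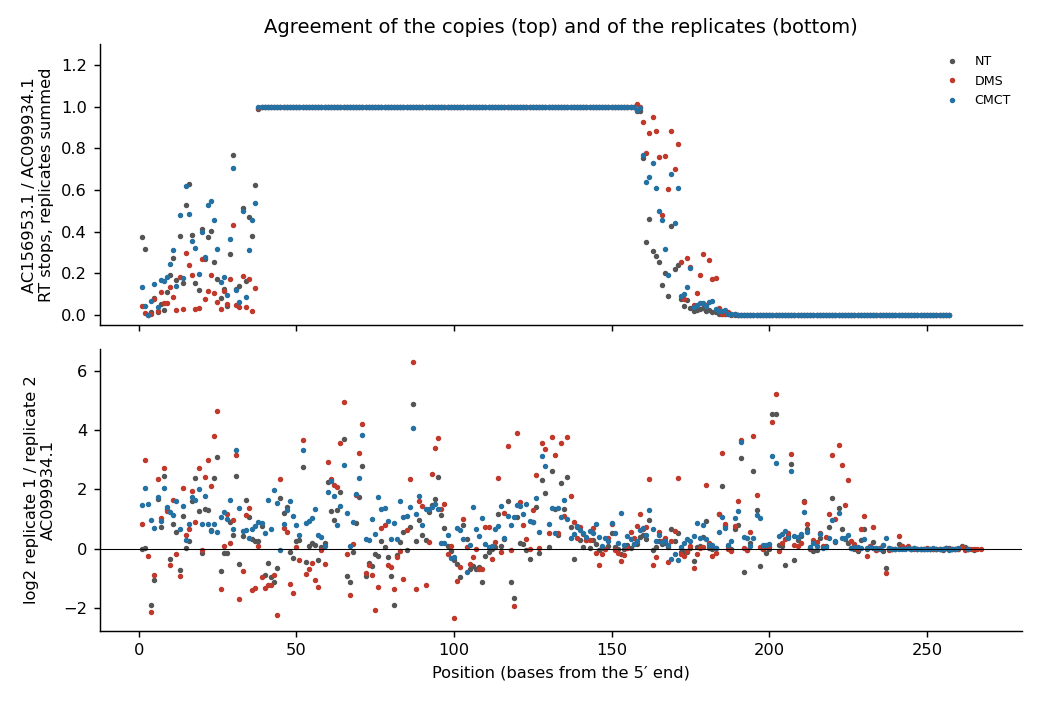
Top, RT stops of AC156953.1 divided by those of AC099934.1 at each position with at least 50 RT stops in AC099934.1, both replicates of a group summed. The ratio is 1 from position 39 to 157, below 1 at most positions before it and falls to 0 after it. Bottom, log2 of replicate 1 over replicate 2 at each position of AC099934.1 in counts plus 1, which spreads widely up to position 233 and stays near 0 at most positions from 234 on. Grey is NT, red DMS and blue CMCT.

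Other misc_RNA genes held part of the same sequence. In 9 further transcripts, all of type misc_RNA, at least 1 position was followed by a 25-base word of a member. CT025673.1 shared such words at 92 positions, which held 96.8% of its 1638805 RT stops. AC149599.1 shared them at 66 positions with 54.6% of its 1317199 RT stops. The 5 misc_RNA genes with the most RT stops after the members were these 2 and 3 genes of 7SK, an RNA that holds a transcription elongation factor inactive. The 7SK genes held 1750458, 1230810 and 1217994 RT stops. The members held 46.6% of the 33332601 RT stops on misc_RNA genes, a share in which shared reads count repeatedly. Measured by the root mean square distance of centred log2 CPM (counts scaled to equal library totals) over the 6 libraries, AC157822.1 lay nearest to AC099934.1 at 0.000, AC156953.1 next at 0.066 and CT025673.1 at 0.137. From AC156953.1, both full-length copies lay at 0.066 and CT025673.1 at 0.196. The 3 nearest genes to each member were thus the other 2 members and CT025673.1, which shares words with them.

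AC099934.1 took a larger share of the library total in both DMS libraries than in any other library, an order that did not hold in full with TMM factors. It held 985124 and 429461 RT stops in NT replicates 1 and 2, which were 0.543% and 0.263% of the library totals with each genomic position taken once per gene. The DMS libraries held 2152186 and 1036286 (1.26% and 0.673%). The CMCT libraries held 738727 and 389560 (0.299% and 0.278%). On these totals DMS lay above NT and CMCT without overlap, while the CMCT values lay between the NT values. With the totals multiplied by the TMM factors that the test between groups uses, the shares were 0.617% and 0.357% in NT, 1.11% and 0.552% in DMS, and 0.293% and 0.257% in CMCT. DMS replicate 2 then lay below NT replicate 1, so DMS and NT overlapped, and both CMCT values lay below both NT values. The share of all genes with either order of the libraries is not given here, so neither order sets this gene apart. Per length, AC099934.1 held 18292 and 8867 RPKM of RT stops in NT, 42502 and 22662 in DMS and 10055 and 9356 in CMCT. It ranked first per length among all genes in both DMS libraries, with AC157822.1 level, and between 21st and 45th in the others. AC156953.1 held 665677 and 284524 in NT, 1509869 and 763623 in DMS, and 556789 and 282244 in CMCT.

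**Figure D2:**
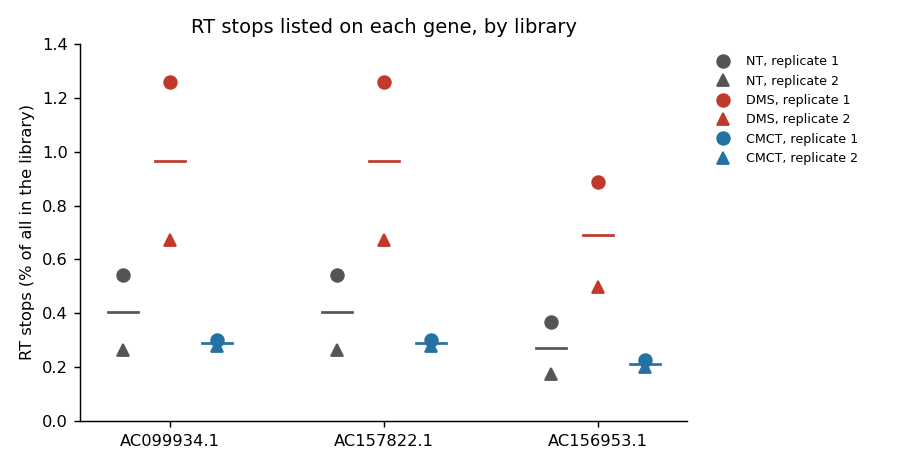
Share of all RT stops of a library that was listed on each gene, in percent, for NT (grey), DMS (red) and CMCT (blue). Circles are replicate 1, triangles replicate 2 and bars their mean. For AC099934.1 the DMS libraries sit at 1.26% and 0.673%, above the NT libraries at 0.543% and 0.263% and the CMCT libraries at 0.299% and 0.278%. With TMM factors DMS replicate 2 (0.552%) lies below NT replicate 1 (0.617%).

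Between groups, 0 of the 3 genes passed edgeR's quasi-likelihood test on counts per gene, with 2 libraries per group in a fit of all 6 libraries and Benjamini-Hochberg adjustment over 13216 genes. For DMS against NT, AC099934.1 and AC157822.1 had a log2 fold change of 0.77 (SE 0.53, edgeR adjusted p = 0.31), and AC156953.1 had 0.86 (SE 0.52, edgeR adjusted p = 0.24). In this comparison 26.4% of all genes passed. For CMCT against NT, the values were -0.83 (SE 0.53, edgeR adjusted p = 0.28) for both full-length copies and -0.69 (SE 0.52, edgeR adjusted p = 0.36) for AC156953.1, beside 29.0% of all genes. For DMS against CMCT, the full-length copies had 1.60 (SE 0.54, edgeR adjusted p = 0.092) and AC156953.1 had 1.55 (SE 0.53, edgeR adjusted p = 0.094), beside 9.25% of all genes. At an unadjusted p under 0.05, 0 of 3 passed in the comparisons with NT and 3 of 3 in DMS against CMCT, at 0.012 for both full-length copies and 0.013 for AC156953.1. Of all genes, 40.7% passed at this unadjusted threshold for DMS against NT, 39.2% for CMCT against NT and 23.3% for DMS against CMCT. DESeq2 called 0 of 3 for DMS against NT, both full-length copies lower in CMCT than in NT (log2 fold change -0.91, DESeq2 adjusted p = 0.041), and 3 of 3 higher in DMS than in CMCT (1.69 with adjusted p = 9.7e-05, and 1.64 with adjusted p = 3.0e-04 for AC156953.1). DESeq2 called 42.3%, 37.3% and 20.2% of all genes in these 3 comparisons. Counted only where the 25 following bases occur at a single place, the full-length copies had no position left and AC156953.1 had -0.47 for DMS against NT and -0.37 for DMS against CMCT (edgeR adjusted p = 0.45 and 0.66), signs opposite to those over all positions. This set was not free of counts shared with AC099934.1, since it includes positions 38 to 40. Position 38, a U raised by CMCT, held 40503 and 21458 RT stops in CMCT, beside 40605 and 21560 in AC099934.1. The set also includes most positions from 1 to 37, where the replicates of AC156953.1 coincide, as described below. Single libraries moved these values. For AC099934.1 the log2 fold change for DMS against NT was 0.19 without DMS replicate 1, 0.43 without NT replicate 2 and 1.22 without NT replicate 1. For CMCT against NT it was -0.38 without NT replicate 1, and for DMS against CMCT it was 1.01 without DMS replicate 1. For AC156953.1 the same omissions gave 0.33, 0.51 and 1.32, then -0.22 and 1.00. With any 1 library of the compared groups left out, 0 of the 3 genes passed. RT stops depend on modification, on RNA level and on the number of cells together, and these cannot be told apart in bulk lysate.

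The mRNAs of the protein partners mostly did not pass the same test. Of the 10 genes of the signal recognition particle and its receptor, 1 was higher and 0 lower in DMS than in NT, where 26.4% of all genes tested passed in either direction, with a median log2 fold change of 0.31 beside 0.01 over all genes tested. The gene that passed was Srp14, whose protein binds the Alu domain (0.78, SE 0.25, edgeR adjusted p = 0.035). Srp9, its partner there, had 0.46 (SE 0.23, edgeR adjusted p = 0.16). In CMCT against NT and in DMS against CMCT, 0 of the 10 passed, where 29.0% and 9.25% of all genes did, with medians of 0.33 and -0.15 beside 0.11 and -0.05 over all genes. The largest values of the list for CMCT against NT were those of Srp54a at 0.83 and Srp54c at 0.78 (edgeR adjusted p = 0.062 and 0.066), which encode the subunit that binds the signal peptide and, with Srp54b, are near-identical copies among which reads are uncertain. In RNA-seq, the 10 protein genes lay between 2.51 and 52.5 RPKM, and AC099934.1 lay at 118628.

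The replicates coincided along part of the RNA and not along the rest. From position 234 to 272 of AC099934.1, the NT replicates held 14257 and 14369 RT stops, the DMS replicates 30545 and 30635, and the CMCT replicates 12923 and 12863. This is the longest 3′ stretch over which the totals of the replicates differed by less than 1% in every group. Its close totals follow from this choice, and its single positions were compared in a stretch picked for agreement. Of the positions there with at least 50 RT stops in both replicates together, 29 of 31 in NT, 31 of 34 in DMS and 27 of 28 in CMCT differed by less than 1 SD of counting error, where independent counts of equal depth would do so at about 68.3% of positions. From position 1 to 233, replicate 1 held 2.34 times the RT stops of replicate 2 in NT, 2.11 times in DMS and 1.93 times in CMCT. Of the positions there, 40 of 232, 22 of 233 and 15 of 233 differed by less than 1 SD of counting error. These counts were not scaled for depth, and the share for equal depth is no measure for CMCT. Its library totals were 247369982 and 140186204, beside 181331360 and 163073003 in NT and 170497865 and 153968447 in DMS. In AC156953.1 the replicates coincided at both ends of the counted part. At the 5′ end, positions 1 to 37 held 30002 and 29974 in NT, 20083 and 19991 in DMS, and 18773 and 18759 in CMCT. AC099934.1 held 150842 and 49332 in NT over these positions. At the other end, positions 172 to 192 of AC156953.1 held 785 and 796 in NT, 3265 and 3296 in DMS, and 1019 and 1004 in CMCT. This stretch was chosen as the longest at that end with totals within 2% in every group, a looser rule than the 1% used for AC099934.1. Close totals there follow from this choice. In these stretches the replicates lay closer together than counting error alone leaves independent libraries, so p-values that rest on them are too small; how the counts came to coincide was not tested.

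Positions with strong stops differed between the replicates elsewhere. The most stopped position of NT replicate 1 and of DMS replicate 1 was the U at position 87, with 166131 and 377546 RT stops. In replicate 2 of NT and DMS it held 5709 and 4821, and the CMCT replicates held 38689 and 2285. It lay high in replicate 1 of every group and low in every replicate 2. The 5 most stopped positions held 25.3% ± 8.94 (SD, n = 2) of the RT stops of AC099934.1 in NT, 33.7% ± 0.172 in DMS and 35.0% ± 2.03 in CMCT. In DMS replicate 2 they were led by the A at position 75 with 194384 RT stops, and in CMCT by U at position 78 in replicate 1 (77275) and C at position 99 in replicate 2 (42295). The U at position 87 is a pyrimidine followed by A, a kind of step picked here after the values were seen. These steps are 25 of 272 measured positions (9.19%) in AC099934.1 and 11.9% of positions over all genes. They held 51.7% and 27.0% of its RT stops in the NT replicates, 46.8% and 8.23% in DMS, and 30.3% and 24.2% in CMCT. Over all genes the shares were 35.7% and 28.9% in NT, 42.2% and 32.1% in DMS, and 41.9% and 50.2% in CMCT. In 7SL the share was larger in replicate 1 of each group, but strong positions weigh most in it. Without position 87 it was 41.9% and 26.0% in NT, 35.5% and 7.80% in DMS, and 26.4% and 23.7% in CMCT. The steps were also counted by position, with counts scaled to the mean of the RNA. Of the 25 steps, 13 (NT), 19 (DMS) and 12 (CMCT) were higher in replicate 1. Of the 247 other positions, 33 (NT), 54 (DMS) and 77 (CMCT) were. The median log2 ratio of replicate 1 over replicate 2 was higher at the steps than elsewhere for every group. These pairs of medians were 0.14 and -1.13 (NT), 1.32 and -0.96 (DMS), and -0.15 and -0.40 (CMCT). The reason for this difference was not tested.

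**Figure D3:**
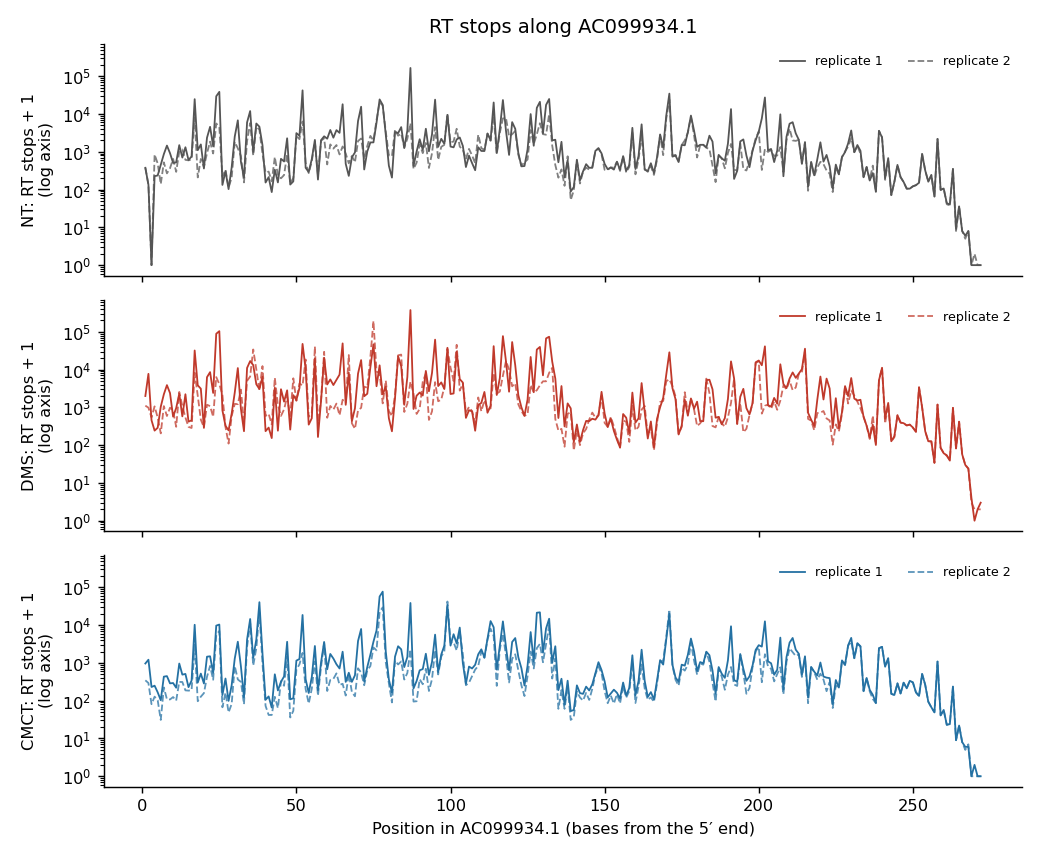
RT stops plus 1 on a log axis at each measured position of AC099934.1, in NT (top), DMS (middle) and CMCT (bottom), with replicate 1 as a solid and replicate 2 as a dashed line. The peak of NT and DMS replicate 1 is at position 87 and that of DMS replicate 2 at position 75; the last 25 bases carry no counts.

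DMS moved the stops of 7SL to A residues. Counts plus 1 were divided by their mean over the measured positions of the RNA and the log2 ratio of treated over NT was taken, so a value above 0 is a larger share of the RNA's own stops. Values per replicate set each library against the NT library of its own number, although shared numbers are not known to pair the libraries. In AC099934.1 the mean log2 ratio of DMS over NT at 53 A residues was 1.08 in replicate 1 and 1.08 in replicate 2. At 75 C residues it was -0.33 and -0.82. At G it was -0.94 and -1.20, and at U -0.59 and -1.40. A thus lay above the other bases in both replicates, and C above G and U in both by a smaller margin. The margin of C was widened by positions 2 and 3, which CMCT raised too. Their log2 ratios were 4.725 and 7.709 in replicate 1 and 1.615 and 7.817 in replicate 2. Of 52 A residues with at least 20 RT stops in a library, 32 were above NT in both replicates and 12 below in both. For C the numbers were 13 and 47 of 73, for G 5 and 76 of 95, and for U 2 and 29 of 48. AC156953.1, with mostly the same counts, had 1.05 and 0.98 at A, while its C residues at -0.86 and -1.24 did not lie above G (-0.93 and -1.21) in both replicates.

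CMCT gave a weaker order. In AC099934.1 the mean log2 ratio of CMCT over NT was 0.24 and -0.00 at U in replicates 1 and 2, -0.10 and -0.99 at G, 0.14 and -0.65 at A, and -0.07 and -0.49 at C. In this gene U was the highest base in both replicates, and G, the other base that CMCT modifies, the lowest of the 4 in both. The C mean of replicate 1 includes log2 ratios of 3.599 and 8.267 at positions 2 and 3, the second without an RT stop in NT. G lay below C in replicate 1 only with these positions. Neither the rank of U nor that of G held in replicate 1 of AC156953.1. There A at 0.17 lay above U at 0.02 and C at -0.26 lay below G at -0.19. In its replicate 2, U was highest at -0.21 and G lowest at -0.99. Of 47 U residues with enough counts, 19 were above NT in both replicates and 16 below in both, and of 95 G residues 12 and 57.

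**Figure D4:**
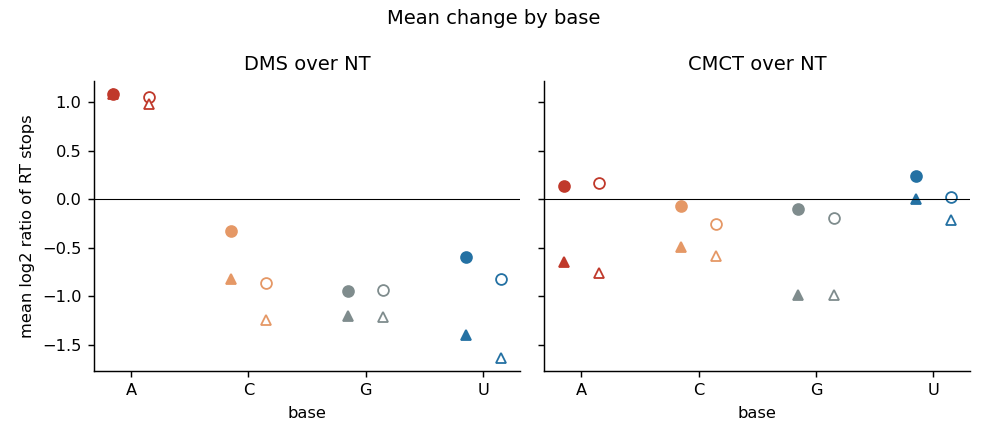
Mean log2 ratio of scaled RT stops over NT for each base, DMS on the left and CMCT on the right. Filled symbols are AC099934.1, open symbols AC156953.1, circles replicate 1 and triangles replicate 2. A is above 0 in DMS in both replicates, at 1.08 and 1.08 for AC099934.1, and the other bases are below 0.

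DMS raised 17 of 268 positions of AC099934.1, 6.34%, where the same rule raised 20.9% of positions over 1 transcript of every gene. Raised means at least 2-fold more scaled stops in each DMS replicate than in each NT replicate, at positions with at least 20 RT stops in 1 of the 4 libraries. The 17 were 14 of 52 A residues and 3 of 73 C residues, with 0 of 95 G and 0 of 48 U residues. Over all genes 48.4% of A, 10.7% of C, 8.73% of G and 6.58% of U positions were raised, with the same base in first place. The minimum of 20 RT stops kept 268 of 272 measured positions of AC099934.1 but 545299 of 25667739 over all genes. A high count in a DMS library alone can bring a position into that background, so the sizes of the shares are not comparable. In AC099934.1, positions 3 and 264 passed the minimum through DMS alone, with 0 and 0 and then 8 and 7 RT stops in NT. With library totals in place of the RNA's own mean, 54 positions of AC099934.1 were raised. The number was 28 with same-numbered libraries only, 34 without replicate 1 and 36 without replicate 2. Without the positions from 234 on, where the replicates coincide, 14 were.

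By the lowest fold over the library pairs, the A residue with the largest change, position 75, lay in the 5′ part of the RNA. In replicate 1 alone its log2 ratio of 3.587 lay below those of the A residues at 67 (4.044), 192 (3.799) and 53 (3.629). In replicate 2 it was highest among A residues at 5.336. Position 75, an A, held 1780 and 1994 RT stops in NT, 46751 and 194384 in DMS, and 3649 and 2566 in CMCT. On the scaled values each DMS library exceeded each NT library there at least 4.68-fold. Position 53, an A, held 377 and 512 in NT and 10211 and 18535 in DMS, at least 3.97-fold. Position 67, an A, held 230 and 496 in NT and 8320 and 24334 in DMS, at least 3.34-fold. In both of these the DMS counts stood far above NT while the CMCT counts, 371 and 203 and then 550 and 516, did not. Position 36, an A, held 989 and 792 in NT and 13163 and 34198 in DMS, at least 3.31-fold.

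Of 4 adjacent A residues from position 213 to 216, the middle pair was raised and the outer pair was not. Positions 214 and 215 held 479 and 499 and then 1769 and 1820 RT stops in NT, and 10332 and 8393 and then 35807 and 30822 in DMS. They were raised at least 4.13-fold and 3.93-fold, and at both the DMS replicates differed less than at position 75. Position 213 held 2082 and 2084 in NT and 7859 and 7792 in DMS, with a lowest fold of 0.753, and position 216 held 120 and 92 in NT and 719 and 495 in DMS, with a lowest fold of 1.55. AC156953.1 departs from the full-length copies at position 215 and held no RT stop from position 193 on, so positions 213 to 216 were measured on the full-length copies. Position 192, an A, held 191 and 332 in NT and 5837 and 5747 in DMS, at least 3.50-fold. Position 208, an A, held 225 and 290 in NT and 4148 and 3776 in DMS, at least 2.85-fold. Position 252, an A, held 151 and 152 in NT and 3403 and 3405 in DMS, at least 4.44-fold, in the stretch of coinciding replicates. Positions 49, 56, 133, 139 and 264, all A, and position 265, a C, were raised at least 2.05-fold to 3.56-fold. The A at 264 rested on few NT counts, 8 and 7 in AC099934.1 and 7 and 8 in AC157822.1, with 81 and 81 in DMS in both. In AC157822.1 the lowest fold was 1.82, which missed the threshold, so this copy had 16 raised positions in place of 17. Just inside the threshold in AC099934.1 lay the A at 264 (2.05-fold) and the A at 49 (2.06-fold), and just outside it the A at 59 (1.82-fold) and the G at 83 (1.69-fold).

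Both reagents raised the 2 C residues at the 5′ end. Position 2 held 133 and 132 RT stops in NT, 7741 and 982 in DMS, and 1217 and 293 in CMCT. Position 3 held 0 in both NT libraries, 456 and 543 in DMS, and 230 and 80 in CMCT. Against a floor of 3 counts per NT library, the scaled stops at position 3 were at least 30.3-fold higher in DMS and at least 29.4-fold higher in CMCT. Only these 2 positions of AC099934.1 were raised by both reagents. Position 3 passed the minimum count through the treated libraries alone. The NT replicates coincided here, also at position 1 with 377 and 378. AC156953.1 has the same bases at these positions and neither was raised there. Its position 2 held 42 and 42 in NT, 33 and 32 in DMS, and 34 and 34 in CMCT, and its position 3 held 0 in every library.

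CMCT raised 6 of 264 positions, 2.27%, beside 13.1% over all genes. There the minimum count kept 523336 of 25667739 positions, so these shares are not comparable in size either. The number raised in AC099934.1 was 10 with library totals, 19 with same-numbered libraries only, 21 without replicate 1 and 34 without replicate 2. The 6 were 3 of 47 U residues, 1 of 95 G residues, the 2 C residues at the 5′ end among 71 C residues, and 0 of 51 A residues. Position 38, a U, held 4625 and 3864 in NT, 3066 and 2841 in DMS, and 40605 and 21560 in CMCT, at least 6.11-fold over NT. Position 113, a G, held 2042 and 1952 in NT and 12821 and 8029 in CMCT, at least 3.82-fold. Position 103, a U, held 2398 and 1373 in NT and 8638 and 6908 in CMCT, at least 3.66-fold. At all 3 the CMCT libraries stood above all NT libraries, and at positions 38 and 113 the scaled stops of DMS, replicates summed, lay below NT (log2 ratio -1.70 and -2.14). Position 241, a U, was raised at least 2.55-fold in the stretch of coinciding replicates, without which 5 positions were raised. The U at 78 (1.94-fold) and the C at 99 (1.98-fold) lay just outside the threshold and the C at 2 (2.44-fold) just inside.

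**Figure D5:**
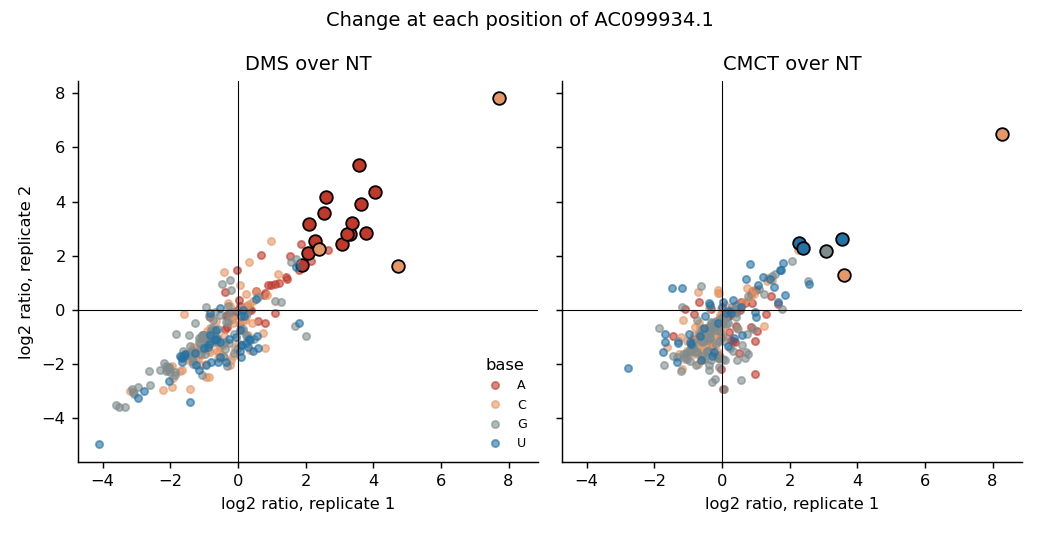
Log2 ratio of scaled RT stops over NT at each position of AC099934.1 with at least 20 RT stops in a library, replicate 1 on the horizontal and replicate 2 on the vertical axis, for DMS (left) and CMCT (right). Colours give the base and large outlined points the 17 positions raised by DMS and the 6 raised by CMCT; each replicate is set against the NT library of its own number. The A residues raised by DMS sit above 0 in both replicates.

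AC156953.1 showed fewer raised positions, 7 of 180 for DMS and 3 of 179 for CMCT. All 7 DMS positions were A residues, of 35 with enough counts. The 5 at positions 53, 67, 75, 133 and 139 lie in the stretch whose counts equal those of AC099934.1. Positions 49 and 56 lie there too and missed the threshold at 1.95-fold and 1.96-fold, beside 2.06-fold and 2.07-fold in AC099934.1. Their counts are the same in both genes, and only the mean by which each gene is scaled differs. The other 2 raised positions lie after this stretch, where the counts part. Position 183 held 18 and 17 RT stops in NT and 992 and 988 in DMS in AC156953.1, at least 10.4-fold, while AC099934.1 held 1309 and 1281 in NT and 5273 and 5782 in DMS there. Position 172 held 54 and 61 in NT and 864 and 882 in DMS, at least 2.63-fold, while AC099934.1 held 746 and 798 in NT and 3235 and 3648 in DMS. Both positions lie in the second stretch where the replicates of AC156953.1 coincide, without which 5 positions were raised by DMS and 3 by CMCT, and in AC099934.1 neither position was raised. The CMCT positions were 38, 103 and 113, as in AC099934.1.

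In AC099934.1, highly reactive residues were more often unpaired than others in a structure predicted by RNAfold from the sequence alone, while in AC156953.1 whether the intervals overlapped depended on the count minimum. The reactivity was the log2 ratio of both replicates summed, set to 0 where negative, Winsorised at the 90th percentile and taken from the reagent with the larger value, and residues above 0.7 were called highly reactive. In AC099934.1, 37 of 69 highly reactive residues were predicted unpaired, 53.6% (95% Wilson interval 42.0% to 64.9%). Of the other 203 measured residues 46 were, 22.7% (17.4% to 28.9%). The intervals did not overlap, and residues of 1 RNA share its libraries, so they cover counting error only. Of the 17 positions raised by DMS 14 were predicted unpaired, beside 69 of the 251 not raised, and of the 6 raised by CMCT 5 were, beside 78 of 258. Most of the 17 were A residues (14), and A residues were predicted unpaired more often than other bases whether raised or not. Neither the raised positions nor the highly reactive residues were matched by base, so these shares cannot be told apart from base composition. Of the 6 predicted hairpin loops, 3 held a raised position and 3 held none, those from 14 to 18, 147 to 150 and 171 to 173. Positions 36 and 38 lay in a predicted hairpin loop from 36 to 43, position 113 in one from 110 to 113, and positions 214 and 215 in one from 210 to 216. The A residues at 49, 208 and 264, raised by DMS, and the U at 241, raised by CMCT, were predicted paired. In AC156953.1, folded with its own 3′ end, 25 of 55 highly reactive residues were predicted unpaired, 45.5% (33.0% to 58.5%), beside 70 of 202 others, 34.7% (28.4% to 41.4%). These others include 66 residues with no RT stop in any library, which could not be called reactive. Without them, a choice made after seeing the data, 39 of 136 others were predicted unpaired, 28.7% (21.7% to 36.8%), and the intervals still overlapped. No minimum count was set here, and some residues near position 190 were called highly reactive on 0 to 3 RT stops per library. With at least 20 RT stops in 1 library, also chosen after seeing the data, 24 of 47 highly reactive residues were predicted unpaired, 51.1% (37.2% to 64.7%), beside 38 of 133 others, 28.6% (21.6% to 36.8%), and the intervals narrowly did not overlap. In AC099934.1 this minimum gave 37 of 68 and 46 of 200, 54.4% and 23.0%.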

How the data were processed

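The 3 genes and the gene lists were chosen with earlier results of these data known. The authors deposited raw counts of RT stops per transcript position for each CIRS-seq library, without normalization, and RNA-seq as single alignments to mm9. According to the submitters' processing notes, Bowtie 1.0.0, bedtools 2.17.0 and FastQC 0.10.1 were used, with TopHat2 2.0.6 for RNA-seq. How reads with several places were treated is not given in the sources used here. Library totals were 140186204 to 247369982 RT stops with each genomic position taken once per gene. The replicates are biological according to the paper; p-values measure the spread between these libraries. The files that combine both replicates were not used.

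Transcripts were matched to GENCODE vM1 (26792 of 26827). Counts per gene were tested with edgeR 4.0.16 (TMM factors 0.737 to 1.22, filterByExpr, quasi-likelihood test, threshold 0.05 after Benjamini-Hochberg adjustment), with DESeq2 1.42.0 as an alternative, in R 4.3.3. The edgeR fit and the rule for raised positions were tested on simulated data. Positions were analysed with Python 3.11.15, a pseudocount of 1 and RNAfold 2.7.2. Genes named besides the members were the 5 next misc_RNA genes by count, the 3 nearest by library pattern (at least 1000 RT stops), transcripts sharing 25-base words, the proteins of the particle and markers of cell types. Of the markers of other cells, Sox1 was not found in the annotation by name. The sequences of the 3 genes are not reported here.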

Additional observations from a re-analysis of the deposited data

How the results depend on the processing

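The log2 fold changes of the 3 genes were computed under 96 alternatives, of which 89 kept the sign and the side of the threshold. These are not 96 separate checks. The 2 full-length copies hold the same counts within 1 RT stop, and AC156953.1 shares most of its counts with them. DESeq2 added 5 calls, given above. The remaining 2 turned the sign, both in AC156953.1 counted at positions found at a single place (-0.47 for DMS against NT and -0.37 for DMS against CMCT). These positions include 38 to 40, which hold counts close or equal to those of AC099934.1. The labels give the libraries a shared number and no shared batch, so with 2 pairs the numbers were not taken to pair them (correlation of same-numbered deviations 0.553 for NT and DMS, 0.0101 for NT and CMCT, -0.107 for DMS and CMCT). With the replicate block the genes differing over the whole table were 5616 in place of 3485 for DMS against NT, 5030 in place of 3827 for CMCT against NT and 2420 in place of 1223 for DMS against CMCT, and 0 of the 3 genes passed. With the CMCT numbers crossed in the replicate block, added after seeing the data, DMS against CMCT gave 1939. DESeq2 gave 5595, 4931 and 2674 genes, and positions found at a single place gave 1024, 633 and 630. For DMS against CMCT, relative log expression factors gave 657 and the 4 libraries alone 574. Leaving out a library gave 1719 to 3130 genes for DMS against NT, 1600 to 4402 for CMCT against NT and 428 to 1720 for DMS against CMCT; the lowest were without NT replicate 2 in both comparisons with NT and without DMS replicate 1 in the last. Counts also moved by over 1.5 times for DMS against NT without DMS replicate 1 (1903) and for CMCT against NT without NT replicate 1 (2503).

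Positions raised by DMS in AC099934.1 fell from 17 to 4 at 4-fold. They were 54 with library totals, 28 with same-numbered libraries only (replicate block) and 34 to 36 without a replicate, where fewer libraries have to differ. For CMCT, 6 became 2, 10, 19 and 21 to 34. Leaving out the positions from 234 on, chosen after seeing the data, gave 14 and 5. In AC156953.1 the 7 DMS positions became 2, 36, 18 and 22 to 23 under the same changes, and the 3 CMCT positions 1, 8, 8 and 12 to 21. The mean log2 ratio at A and C less that at G and U was 1.16 for DMS, and -0.06 and -0.12 with counts moved 1 base upstream and downstream; in AC156953.1 it was 0.94, -0.38 and -0.12. At G and U less A and C it was -0.07 for CMCT, -0.17 with counts moved downstream and -0.10 to -0.00 without a replicate. The sign of -0.07 rests on the C residues at positions 2 and 3 of AC099934.1, with log2 ratios of 2.83 and 8.61. With Winsorising over positions above 0, 71.0% of highly reactive residues were predicted unpaired. The 10 most stopped positions held 36.5% (NT), 46.7% (DMS) and 47.2% (CMCT) of RT stops. The cause of these changes was not tested.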
